A study of Mus musculus with 7 samples.

Results

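The genes described here encode the subunits of the proteasome, with its activators, its inhibitor and its assembly chaperones, in C2C12 mouse muscle cells. They were chosen by name, as every gene on the array whose symbol starts with Psm, a letter from a to g, and a digit. The array held 49 such genes on 61 probes, of 39429 probes in all. A gene was kept if a probe was well above background on at least 3 arrays of 1 group, and its brightest probe was used. This left 46 genes. One of them, Psmc3ip, meets the name rule only: it encodes a meiotic recombination factor, and 45 genes remain without it.

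C2C12 is a line of mouse myoblasts that fuse into myotubes when serum is reduced. The exosomes, small vesicles shed by cells, came from C2C12 myotubes that had received 0.5 mM palmitate (EXO-Palm) or BSA, the carrier of the fatty acid (EXO-BSA). Other C2C12 cells were then incubated with these exosomes for 24 h, and their RNA was measured on 1-colour arrays, 4 for EXO-BSA and 3 for EXO-Palm. No array of cells without exosomes was part of the comparison, so every difference is between the 2 kinds of exosome. The series design names C2C12 alone, while the labels of the 7 samples count upward from C2C12 to C2C18; C2C12, a clonal line, was taken for all. The labels call the samples biological replicates without saying whether exosomes were prepared separately for each. The labels give the cell type as myoblast, while the study describes the cells that received exosomes as myotubes. All 8 markers of differentiated muscle that were looked up, Myog and Ckm among them, were well above background on all 7 arrays, as were the myoblast genes Pax7, Cdh15 and Vcam1, while Myf5 was on 0.

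The proteasome breaks down proteins that carry ubiquitin. Its barrel, the 20S core, is built from rings of alpha and beta subunits, and the cutting sites lie on the beta subunits. The 19S cap recognises the ubiquitin chain, unfolds the substrate with a ring of ATPases and feeds it into the core. In muscle, this pathway carries much of the breakdown of contractile proteins during wasting. In cells exposed to interferon, 3 of the beta subunits are replaced by the inducible subunits of the immunoproteasome, which favours peptides for class I antigen presentation.

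No proteasome gene passed the test between EXO-Palm and EXO-BSA. By limma with Benjamini-Hochberg adjustment over 21589 probes, 0 of 46 genes were called higher and 0 lower at an adjusted p of 0.05, where 0.463% of all tested probes were called higher and 0.0695% lower (0.533% in both directions). The lowest adjusted p among the 46 genes was 0.342, for Psme3. At an unadjusted p of 0.05, 2 genes passed as higher and 1 as lower, or 6.52% together. Of all tested probes, 4.85% passed as higher and 5.19% as lower. Both directions together held 2169 of the 21589 probes, a larger share than that of the 46 genes. The fitted difference was above 0 for 22 genes and below 0 for 24. Its median was -0.03 on the log2 scale, against -0.02 for all tested probes, and it ran from -0.84 for Psmg4 to 0.87 for Psmf1. The 95% interval of the difference lay within 1 log2 unit of 0, a change of less than 2-fold either way, for 38 of 46 genes (82.6%) and for 59.6% of all tested probes. These 2 shares are not of equally bright probes. Of the 46 genes, 43 were well above background on all 7 arrays, against 17276 of the 21589 probes. The median standard errors were 0.24 and 0.27. Smaller changes of single subunits were not resolved with 4 and 3 arrays, since the standard errors ran from 0.18 to 0.44. For the genes not among the 38, the interval reached past 1 log2 unit, so a 2-fold change was not excluded there.

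**Figure D1:**
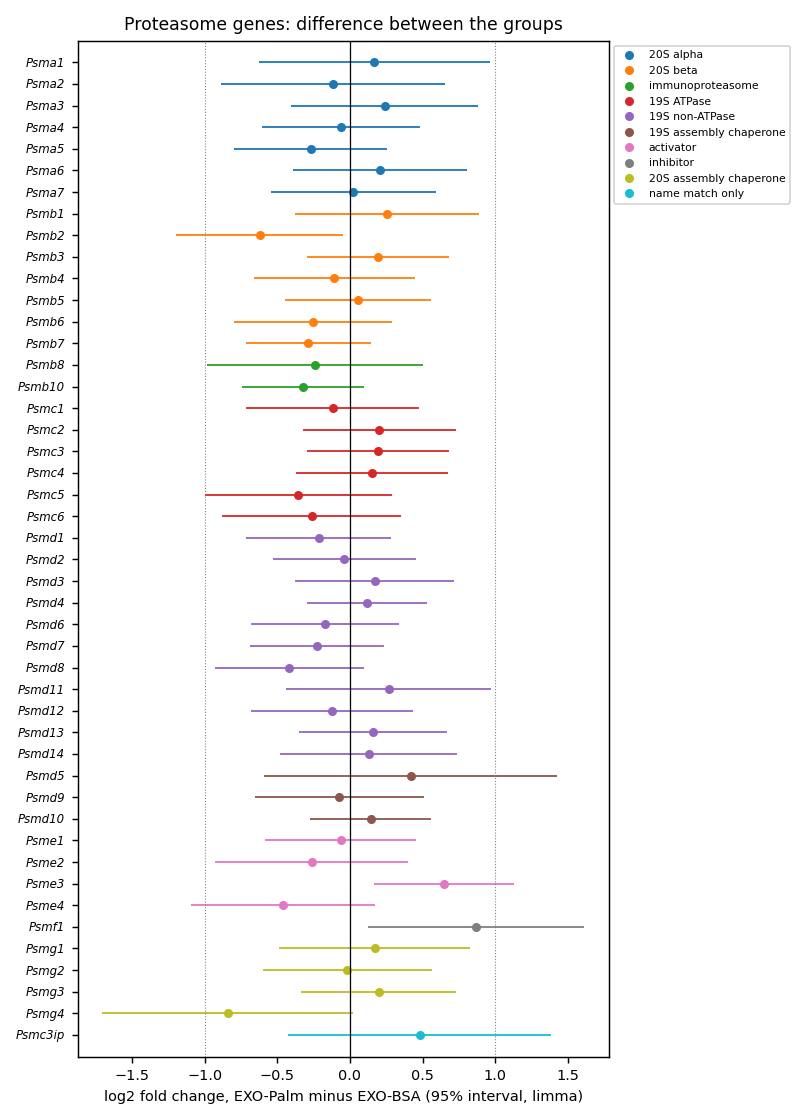
Fitted log2 fold change of each of the 46 genes, EXO-Palm minus EXO-BSA (points), with its 95% interval from limma (lines), coloured by class; dotted lines mark a change of 1 log2 unit. The points scatter on both sides of 0, from -0.84 (Psmg4) to 0.87 (Psmf1), and the intervals of 38 genes stay between the dotted lines.

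**Figure D2:**
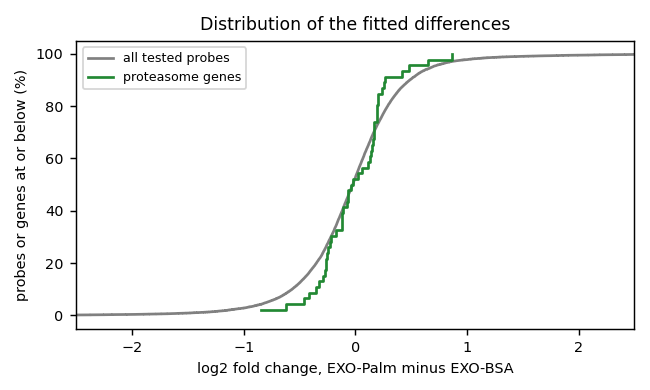
Cumulative share (%) of fitted log2 fold changes for the 46 proteasome genes (green steps) and the 21589 tested probes (grey line); the x axis ends at 2.5 either way and leaves out the outermost probes. Both curves cross 50% close to 0, with medians of -0.03 and -0.02.

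The 14 constitutive genes of the 20S core had a median difference of -0.02, with 7 above 0 and 7 below. The 7 alpha subunits, which form the outer rings and gate the entry to the barrel, ranged from -0.27 (Psma5) to 0.24 (Psma3). Psma3 read 5.67, 5.03, 5.20 and 5.18 on EXO-BSA 1 to 4 and 4.96, 5.96 and 5.61 on EXO-Palm 1 to 3, as log2 signal relative to the 75th percentile of the array, the scale of all single values below. Its 2 groups overlapped, and EXO-Palm held both the lowest and the highest value. With the slide as a block its difference was -0.04. Psma5 read 4.98, 4.49 and 4.66 on EXO-BSA 1, 2 and 4 and 4.37, 4.49 and 4.46 on EXO-Palm. Its spot on EXO-BSA 3 was marked by the scanner software and left out, as was that of Psma2 on EXO-Palm 2.

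The catalytic beta subunits carry the 3 cutting activities of the core. Psmb5, the chymotrypsin-like subunit, read 6.81, 7.14, 6.93 and 7.20 on the EXO-BSA arrays and 6.74, 7.19 and 7.30 on the EXO-Palm arrays. The groups overlapped, and the difference was 0.06 ± 0.22 (SE; limma adjusted p = 0.952, 95% interval -0.45 to 0.56), and -0.09 with the slide as a block. Psmb6, the caspase-like subunit, read 5.92, 6.0, 5.99 and 6.48 on EXO-BSA and 5.81, 5.55 and 6.17 on EXO-Palm, a difference of -0.25 ± 0.24 (limma adjusted p = 0.761). Its value on EXO-BSA 4 lay apart from the other 3 of its group. Psmb7, the trypsin-like subunit, read 4.03, 4.12, 4.24 and 4.27 on EXO-BSA and 3.72, 3.90 and 4.01 on EXO-Palm. Every EXO-Palm value of Psmb7 lay below every EXO-BSA value, by 0.29 ± 0.19 in the fit (limma adjusted p = 0.659, exact permutation p = 0.0571, 2-sided).

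Among the beta subunits without a cutting site, the lowest and highest differences were those of Psmb2 and Psmb1. Psmb2 read 1.72, 1.78, 1.72 and 1.56 on EXO-BSA and 1.40, 1.30 and 0.52 on EXO-Palm. The groups did not overlap, and the difference was -0.62 ± 0.25 (limma adjusted p = 0.464, exact permutation p = 0.0286, 2-sided, which is the smallest p that 4 against 3 arrays allow). Without EXO-Palm 3, which held the lowest value, the difference was -0.35, while it was -1.06 with normexp and quantile normalisation and -1.09 on the authors' processed values. Psmb1 read from 3.76 to 4.58 on EXO-BSA and from 3.90 to 4.58 on EXO-Palm, with a difference of 0.26 ± 0.28 (limma adjusted p = 0.796).

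Of the 3 inducible subunits of the immunoproteasome, Psmb10 was measured on all 7 arrays. It stands in for Psmb7 in the immunoproteasome and read 2.48, 2.67, 2.58 and 2.49 on EXO-BSA and 2.23, 2.12 and 2.35 on EXO-Palm. All 3 EXO-Palm values lay below the EXO-BSA values, with a difference of -0.32 ± 0.19 (limma adjusted p = 0.608, exact permutation p = 0.0286, 2-sided). Psmb8, the counterpart of Psmb5, was dim: it was well above background on all 4 EXO-BSA arrays and on 1 of 3 EXO-Palm arrays. Its values were -4.51, -4.22, -3.49 and -3.94 on EXO-BSA and -3.83, -4.14 and -4.87 on EXO-Palm, so the groups overlapped, and the difference was -0.24 ± 0.33 (limma adjusted p = 0.841), or -0.09 with the slide as a block. Psmb9, the counterpart of Psmb6, was well above background only on EXO-BSA 2 and EXO-Palm 1 and was not tested. Its values spread from -5.73 to -3.97 on EXO-BSA and from -5.71 to -4.50 on EXO-Palm. The tissue-restricted forms Psma8, of testis, and Psmb11, of thymus, were well above background on 0 arrays.

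Immunoproteasomes are abundant in leukocytes, so leukocyte genes were looked up beside these values. Ptprc was well above background on at most 2 arrays, Cd68 on 1, Cd79a on 3 and Itgax and Lyz2 on 0, while a probe of Csf1r and of Cd3e was on 7 and of Emr1 on 6. None of the 3 tested leukocyte genes was called, with differences of 0.45 (Csf1r), 0.58 (Emr1) and -1.19 (Cd3e), and their part in the Psmb8 and Psmb10 values was not tested.

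**Figure D3:**
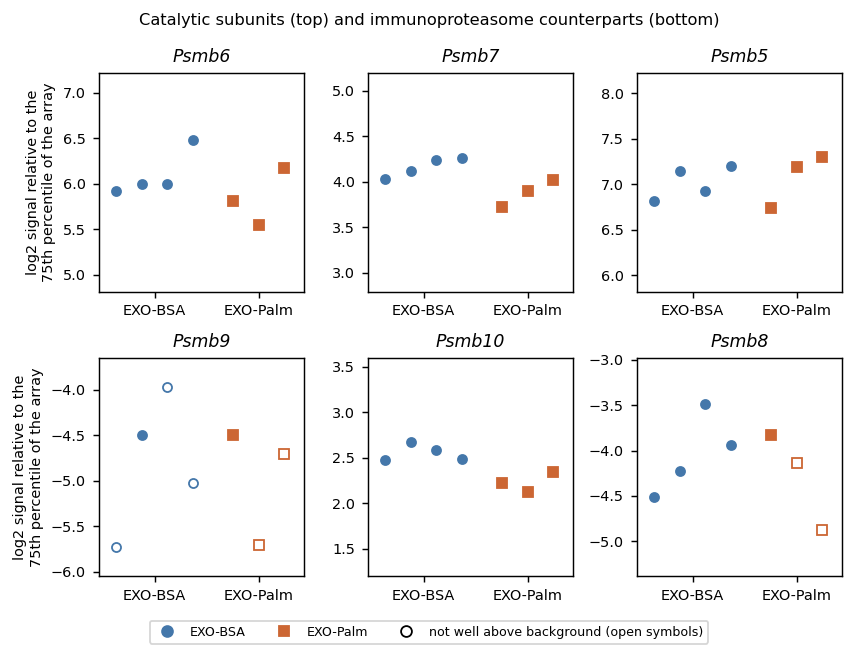
Log2 signal relative to the 75th percentile of each array for the catalytic subunits (top row) and the immunoproteasome subunit that replaces each (bottom row), 1 point per array, replicates in numerical order within a group; open symbols were not well above background. Every panel spans the same log2 range around its own centre, so spread can be compared between panels but height cannot. Psmb7 and Psmb10 show no overlap of the groups, and 5 of the 7 Psmb9 points are open.

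The 17 genes of the 19S cap had a median difference of -0.04 and ran from -0.42 to 0.27, with 8 above 0 and 9 below. No cap gene had groups that did not overlap. Among the 6 ATPases, the motor of the cap, Psmc2 had the highest difference (0.20 ± 0.23) and Psmc5 the lowest (-0.36 ± 0.28). Neither sign held throughout: the mean of both Psmc2 probes gave -0.06, and Psmc5 was at 0.03 with the slide as a block. Psmc5 read 3.86, 3.51, 4.03 and 3.1 on EXO-BSA and 3.50, 2.89 and 3.43 on EXO-Palm, so that the EXO-BSA range took in 2 of the 3 EXO-Palm values. Among the 11 other cap subunits, which hold the ubiquitin receptor Psmd4 and the deubiquitinase Psmd14, Psmd8 was lowest and Psmd11 highest. Psmd8, a subunit of the lid, read 3.94, 3.46, 3.80 and 3.48 on EXO-BSA and 2.99, 3.49 and 3.27 on EXO-Palm, a difference of -0.42 ± 0.23 (limma adjusted p = 0.591). Psmd11, also of the lid, differed by 0.27 ± 0.31, and by 0.12 with the slide as a block. Psmd4 had the smallest standard error of the 46 genes, with a difference of 0.12 ± 0.18 and a 95% interval of -0.30 to 0.53. Under other processing its difference ran from -0.27 to 0.17, and its sign turned in 2 of 20 settings. Psmd14 differed by 0.13 ± 0.27, and by -0.06 with the slide as a block. Of the 3 chaperones that assemble the cap, Psmd5 differed by 0.42 ± 0.44, with EXO-BSA values from -0.18 to 1.89, and Psmd9 by -0.07 ± 0.26, or 0.06 with the slide as a block.

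The activators and the inhibitor dock on the ends of the core in place of the cap or act on its assembly, and they held the 2 members with the lowest unadjusted p. Psme3, the nuclear activator PA28gamma, read 0.22, 0.46, 0.23 and 0.74 on EXO-BSA and 0.92, 1.15 and 1.11 on EXO-Palm. The groups did not overlap, and the difference was 0.65 ± 0.21, or 1.57-fold with a 95% interval of 1.12 to 2.19 (limma unadjusted p = 0.014, adjusted p = 0.342; exact permutation p = 0.0571, 2-sided). Psmf1, which encodes the inhibitor PI31, read -0.84, -0.79, -2.01 and -1.41 on EXO-BSA and -0.53, -0.08 and -0.58 on EXO-Palm. These groups did not overlap either, with a difference of 0.87 ± 0.33, or 1.83-fold with a 95% interval of 1.09 to 3.06 (limma unadjusted p = 0.0275, adjusted p = 0.430; exact permutation p = 0.0857, 2-sided). With the slide as a block it was 0.52. Psme4, the activator PA200, read 1.08, 0.95, 0.87 and 0.25 on EXO-BSA and 0.64, 0.43 and -0.09 on EXO-Palm, a difference of -0.46 ± 0.28 (limma adjusted p = 0.625).

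Psme1 and Psme2 encode PA28alpha and PA28beta, the interferon-inducible activator that works with the immunoproteasome. The Psme1 probe was printed 10 times on each array, and its spots varied with an SD of 0.10 to 0.26 log2 within an array. Psme1 read 2.61, 2.45, 2.68 and 2.63 on EXO-BSA and 2.10, 2.75 and 2.74 on EXO-Palm, a difference of -0.06 ± 0.23 and of -0.20 with the slide as a block. EXO-Palm 1 lay below all 4 EXO-BSA arrays, and the other 2 EXO-Palm arrays above them. Psme2 read 4.28, 4.48, 3.51 and 4.27 on EXO-BSA and 4.20, 3.94 and 3.48 on EXO-Palm, a difference of -0.26 ± 0.29 (-0.45 with the slide as a block), and its second tested probe gave 0.13. Of the chaperones that build the core, Psmg4 had the lowest difference of all members, -0.84 ± 0.38 (limma adjusted p = 0.511), and Psmg3 the highest of its class, 0.20 ± 0.24 (0.34 with the slide as a block). Psmg4 read 0.64, 0.80, 1.38 and 0.53 on EXO-BSA and 0.72, -0.86 and 0.12 on EXO-Palm, so its difference rested most on EXO-Palm 2, and it was -0.42 without that array and -0.18 with the slide as a block. Psmc3ip, the member by name only, read from -3.31 to -1.45 on EXO-BSA and from -2.18 to -1.82 on EXO-Palm, with a difference of 0.48 ± 0.40.

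The groups did not overlap for 5 of 46 genes, Psme3 and Psmf1 higher and Psmb2, Psmb7 and Psmb10 lower in EXO-Palm. This is 10.9%, against 11.3% of all tested probes (5.40% higher and 5.87% lower). Arrays of both groups were on 2 of the slides. On slide 1 (EXO-BSA 1 and 2 against EXO-Palm 1) the differences of these genes were 0.58 for Psme3, 0.28 for Psmf1, -0.35 for Psmb2, -0.36 for Psmb7 and -0.35 for Psmb10. On slide 3 (EXO-BSA 4 against EXO-Palm 3) they were 0.37, 0.84, -1.04, -0.25 and -0.14 in the same order. The signs on the slides follow from the choice of genes whose groups do not overlap and add no support to their direction. The exact permutation p was printed only for genes without overlap. It is low through that same choice and is not adjusted, so it adds no support either. For genes with overlap it was 0.771 for Psmb5, 0.314 for Psmb6 and 0.171 for Psmd8.

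**Figure D4:**
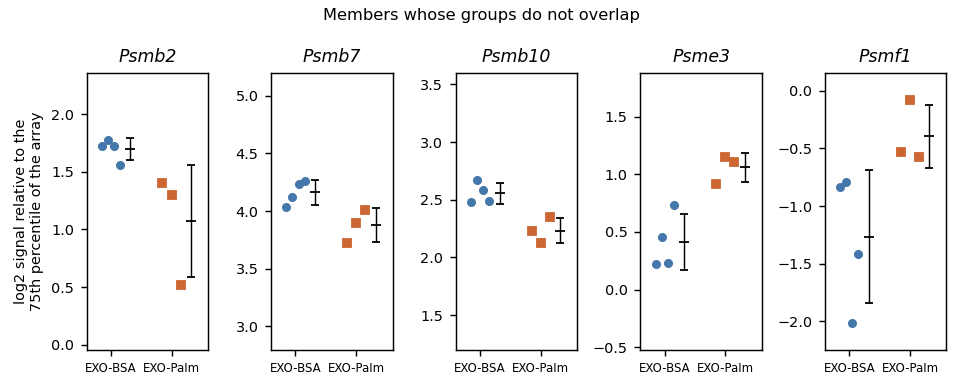
Log2 signal relative to the 75th percentile of each array for the 5 genes whose groups do not overlap, 1 point per array, with the mean and SD of each group in black; every panel spans the same log2 range around its own centre. The EXO-Palm points lie below the EXO-BSA points for Psmb2, Psmb7 and Psmb10 and above them for Psme3 and Psmf1, and none passed an adjusted p of 0.05.

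The core and the cap were also followed array by array. Relative to the EXO-BSA mean of each gene, the median of the 14 core genes was -0.28 on EXO-Palm 1, 0.15 on EXO-Palm 2 and 0.07 on EXO-Palm 3, and on the EXO-BSA arrays, on whose mean the values are centred, it lay between -0.03 and 0.04. Alpha and beta subunits taken apart spread more widely on the control arrays. The alpha median was 0.28 on EXO-BSA 1 and -0.22 on EXO-BSA 2, and -0.22, 0.20 and 0.12 on EXO-Palm 1 to 3. The beta median lay between -0.13 and 0.06 on EXO-BSA, and was -0.28, -0.10 and 0.06 on EXO-Palm 1 to 3. The median of the 17 cap genes lay between -0.11 and 0.12 on all 7 arrays. EXO-Palm 1 was also the brightest array, with 70.3% of probes well above background against 48.3 to 66.9% on the others, and the part of brightness in its low core values was not tested. Without EXO-Palm 1 the median difference of the 46 genes was 0.11 in place of -0.03.

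**Figure D5:**
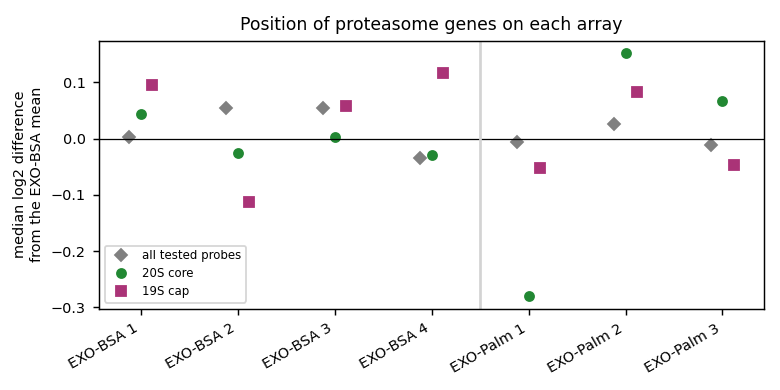
Median log2 difference from the EXO-BSA mean on each array, for all tested probes (grey), the 14 constitutive 20S core genes (green) and the 17 genes of the 19S cap (purple). The core genes sit at -0.28 on EXO-Palm 1 and at 0.15 and 0.07 on EXO-Palm 2 and 3; centring on the EXO-BSA mean draws the EXO-BSA points towards 0.

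For 11 genes 2 probes were tested. The 2 Psmc2 probes share 50 bases, and the probes of the other 10 genes share none. The 2 fitted differences had the same sign for 4 genes and opposite signs for 7. The gap was widest for Psma4, at -0.06 and 0.55, and narrowest for Psmc3, at 0.17 and 0.19.

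The promoters were then examined for sequence that the members share. The RefSeq promoter table (GRCm38.p6) held 41 of the 49 genes, and the 250 bases before each start were searched on both strands for 10 motifs. The letters CCGGAAG, the core bound by ETS factors, were found for 13 of 41 genes (31.7%), against 7.83% of 27025 genes with a promoter and 10.2% of 17492 protein-coding ones. The 13 genes with CCGGAAG include Psmc3ip, the member by name only. This motif was singled out after the counts of all 10 had been seen, promoters of like base composition were not used as a comparison, and no test was made. The GC box GGGCGG was found for 53.7% of members against 35.4% of all genes and 45.8% of protein-coding ones, the kind to which all members belong. CCAAT was found for 36.6% of members against 37.5% and 39.5%. The antioxidant response element TGACNNNGC was found for 5 of 41 members against 3112 of 27025 genes and 2098 of 17492 protein-coding ones, its looser form TGANNNNGC, which takes in every TGACNNNGC, for 41.5% against 38.7 and 38.9%, and the interferon response element (GAAA, any 2 bases, GAAA) for 7.32% against 3.46 and 3.48%. The ZNF143 motif was found for 4.88% against 1.92 and 2.74%, and the cAMP response element TGACGTCA and 2 forms of the kappa B motif for 0 of 41 genes, against 1.77, 0.115 and 0.159% of all genes. Matches shared bases in 11 of the 44 member promoters and in 5051 of all 32851 promoters. This count takes in TGACNNNGC lying within its looser form, and neighbouring matches of the same motif.

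The windows below show the ETS core in 6 genes, 3 of the cap ATPases, 1 further cap subunit and the 2 activators whose differences had opposite signs. Each is written along the strand of its gene, with the match in capitals (CTTCCGG is the same core on the other strand).
Psmc1, chr12:100110164-100110190: ggtggatgcaCTTCCGGcggtggcgat
Psmc2, chr5:21785181-21785207: ccagtgagcaCTTCCGGgatggggctc
Psmc6, chr14:45329714-45329740: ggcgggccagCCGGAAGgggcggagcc
Psmd12, chr11:107479501-107479527: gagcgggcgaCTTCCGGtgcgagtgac
Psme3, chr11:101316096-101316122: ggcacaaggcCCGGAAGctccgacagc
Psme4, chr11:30771712-30771738: tggccccgccCCGGAAGtgacttgagg
Psme3 and Psme4, which both hold the match, were fitted at 0.65 and -0.46, and neither passed the test. The second tested probe of Psme4 gave -0.16. Whether the match goes with a direction of the difference was not tested. The 12 proteasome genes with a match and a fitted value had a median difference of 0.04, from -0.46 to 0.65, and the 26 without one had -0.06, from -0.84 to 0.87.

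The 250 bases before the start of Psmb5 and of Psmb8, which encode the constitutive and the inducible form of the same cutting subunit, are given because 1 replaces the other in the immunoproteasome. Capitals mark matches to any of the 10 motifs. Psmb5 is on the minus strand and Psmb8 on the plus strand, and each is written along its gene.
Psmb5, chr14:54617996-54618245: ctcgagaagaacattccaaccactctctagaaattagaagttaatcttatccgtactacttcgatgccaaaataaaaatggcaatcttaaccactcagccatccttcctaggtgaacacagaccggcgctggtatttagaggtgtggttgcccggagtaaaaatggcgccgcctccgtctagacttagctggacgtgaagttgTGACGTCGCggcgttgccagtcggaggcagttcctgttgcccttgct
Psmb8, chr17:34197945-34198194: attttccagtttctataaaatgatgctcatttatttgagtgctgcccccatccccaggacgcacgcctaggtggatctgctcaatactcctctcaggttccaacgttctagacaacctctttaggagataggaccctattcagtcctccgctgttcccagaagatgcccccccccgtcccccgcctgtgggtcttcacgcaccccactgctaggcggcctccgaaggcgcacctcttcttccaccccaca
The Psmb5 promoter held 1 match, the antioxidant response element TGACGTCGC, 47 to 39 bases before the start. The Psmb8 window held no match to these letters.

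Genes that work with the proteasome were read from 4 lists. Of 42 genes, 37 were tested. By limma 0 were called higher and 0 lower at an adjusted p of 0.05, against 0.533% of all tested probes. At an unadjusted p of 0.05, 1 was higher and 1 lower, or 5.41% of the 37. This is a smaller share than the 2169 of 21589 among all tested probes. The groups did not overlap for 2 of the 37 (5.41%), Maff and Uba6, against 11.3% of all tested probes. The fitted difference was above 0 for 19 and below 0 for 18, with a median of 0.01. Among the 6 tested factors that act on proteasome gene transcription, which include Nfe2l1 and Nfe2l2, Maff had the highest difference and Mafg the lowest (-0.25). Maff, a small Maf protein that pairs with the Nfe2l factors, read 0.07, -0.08, -0.35 and -0.02 on EXO-BSA and 0.80, 0.76 and 0.75 on EXO-Palm. The groups did not overlap, and the difference was 0.87 ± 0.19 (limma adjusted p = 0.136, exact permutation p = 0.0286, 2-sided). Nfe2l1, the factor that raises proteasome genes when the proteasome is inhibited, differed by 0.16 ± 0.37 (0.25 with the slide as a block). Nfe2l2 differed by 0.20 ± 0.25, with values on 2 EXO-Palm arrays only, since its spot on EXO-Palm 1 was marked and left out.

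Among 15 genes of ubiquitin itself, its activation and its delivery to the proteasome, 4 were above 0 and 11 below, none of them past the test. Their median difference was -0.10, and 47.3% of all tested probes were above 0. Uba6, an enzyme that activates ubiquitin, read -0.50, -0.66, -0.62 and -0.59 on EXO-BSA and -0.80, -1.95 and -1.33 on EXO-Palm, a difference of -0.77 ± 0.28 with no overlap (limma adjusted p = 0.404) and of -0.44 with the slide as a block. Ubqln2, a shuttle for ubiquitinated proteins, was the highest of this list at 0.49 ± 0.37, and at 0.08 with the slide as a block. Of 11 partners of the complex, Adrm1, the ubiquitin receptor Rpn13, was lowest at -1.0 ± 0.63, with EXO-Palm values of 2.82, -0.12 and 1.92 against 1.88 to 3.13 on EXO-BSA, and -0.08 with the slide as a block. Uchl5, the deubiquitinase that binds Adrm1, was highest at 0.40 ± 0.22. Of 5 genes of class I antigen processing, B2m was lowest at -0.40 ± 0.34, and at -0.64 with the slide as a block. Nlrc5 was highest at 0.29 ± 0.70, but it was well above background on 3 of 4 EXO-BSA and 2 of 3 EXO-Palm arrays only, and at -0.27 with the slide as a block.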

How the data were processed

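RNA of C2C12 cells was measured on 7 one-colour Agilent mouse arrays, from 0.1 µg of labelled RNA each. The authors deposited the scanner software's output, in which the processed signal is a background-subtracted intensity without normalisation between arrays, and a table of their processed log2 values. The file of EXO-BSA 3 came from software version 11.5.1.1 and the others from 10.7.3.1. The submitters' processing notes name 9.1.

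Signals were put on the log2 scale and set against the array's own 75th percentile, taken over 43020 spots that are no controls, without spots marked as uneven or outlying and with spots of 1 probe averaged. No spot was saturated. The number of arrays limits the precision. A linear model on condition was fitted in R 4.3.3 by limma 3.58.1 (with jsonlite 2.0.0 and version 1.17.8 of data.table), with Benjamini-Hochberg adjustment over 21589 probes at 0.05, 2-sided, and single genes by an exact permutation test over the 35 partitions of 7 arrays. The model was tested on simulated data. The p-values measure the spread between these samples, which may be partly technical.

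Described in full were the catalytic and immunoproteasome subunits, Psme1, Psme2, Psmc3ip, the highest and lowest gene of each class or related list, and any gene past the test; the named genes with groups that do not overlap, Psmd4, Psmd14, Nfe2l1, Nfe2l2 and the genes with 2 probes were added after their values were seen. The members, the lists and the 10 motifs were chosen with earlier results of these data known. Motifs were searched in the RefSeq promoter table with Python, and the windows printed were picked after the matches were known. Alternatives were background correction, normalisation, the authors' values, the probe filter, the slide, the replicate number, the variance model, the methods' t-test, the probe of a gene, and each array left out. Normexp used the median signal, since the mean signal is not in the file of EXO-BSA 3. The array files name no genome build for the probes, so probe positions are not given. For 1 related gene, single values and Dixon's test are not reported here, while the counts of its list include it.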

Additional observations from a re-analysis of the deposited data

Results flagged for a closer look

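Dixon's test was made on the EXO-BSA values of 81 member and related genes, and for 3 of them it set 1 array apart, where chance gives about 5% of groups. Psmb6 read 6.48 on EXO-BSA 4 and 5.92 to 6.0 on the others. Psmc1, an ATPase of the cap, read 5.54 on EXO-BSA 2 and 6.08 to 6.14 on the others. Psmd13, a lid subunit, read 2.63 on EXO-BSA 1 and 3.20 to 3.24 on the others.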

How the results depend on the processing

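Other processing was tried in 20 ways, and in the 19 that adjust for multiple tests no proteasome gene passed an adjusted p of 0.05, with a lowest adjusted p of 0.196. The methods' t-test at an unadjusted p of 0.05 called 1 member higher (Psme3) and 3 lower (Psmb2, Psmb7 and Psmb10) of 46, and 1 related gene higher and 1 lower of 37, where 4.60% of all tested probes were higher and 5.16% lower. After Benjamini-Hochberg adjustment it called 0 members and 0 of all probes. Over all tested probes, 115 were called as reported and from 0 to 202 under the alternatives with adjusted p-values. The sign of the difference was the same in all 20 for 21 of 46 genes. The probe filters, the variance model and the t-tests leave the fitted difference of a probe unchanged, so its sign could not turn there. The median difference of the members ran from -0.09 to 0.11 over all settings, and leaving out 1 array at a time gave -0.0355 to 0.11, the highest without EXO-Palm 1. Without Psmc3ip, a setting chosen after seeing the data, it was -0.04. The replicate numbers were not used as pairs in the main fit. Same-numbered arrays deviated with correlations of 0.12, -0.15 and -0.15, and the labels do not say whether exosomes were prepared separately. The fit with the replicate number as a block called 0 members, as it called 0 of all 21589 probes, and gave a median of -0.02. EXO-Palm 2 and EXO-BSA 3 are alone on their slides and add nothing to a fit with the slide as a fixed block. Dim probes limit Psmb8 and Psmb9, and without the filter on dim probes 0 members and 0 of all 39429 probes were called. With the slide as a fixed block the sign turned for 11 of 46 members.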
